A study of Mus musculus with 8 samples.

Results

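The enzymes that break down amino acids were followed by RNA-seq of mouse liver, as 41 genes picked by symbol from the 24421 in the count table. They comprise the pathways of histidine, tyrosine, tryptophan, serine and glycine, proline, lysine and the branched-chain amino acids, the carboxylase of propionyl-CoA, and the transaminases. All 41 passed the filter on low counts. The rule that picks them uses symbols, not measured values, but the list was chosen with earlier results of these data known. Livers came from C57BL/6N mice of 8 to 10 weeks of age. The CAPZ_KO group (4 libraries) carried Albumin-CreERT2 and floxed Capzb (Capzb-fl/fl) and had received tamoxifen, given on 5 consecutive days from an age of 4 to 6 weeks. The WT group (4 libraries) mixed tamoxifen-treated Capzb-fl/fl animals without Cre and Albumin-CreERT2;Capzb-fl/fl animals that received none, and the labels do not tell which library is which. Both groups therefore carried the floxed alleles, and exposure to tamoxifen cannot be told apart from the deletion. The recombinase is driven by the albumin promoter, which is active in hepatocytes, while the RNA came from whole perfused liver, which also holds cells that this Cre does not target. Capzb encodes the beta subunit of the protein that caps the barbed ends of actin filaments, and the series asks how control of these filaments bears on organ growth and cell identity.

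The liver is the main site where amino acids from food and from body protein are taken apart. Transaminases and dehydratases remove the amino group, which goes on to the urea cycle, and the carbon skeletons are oxidised in mitochondria or used to make glucose, ketone bodies or NAD. Several of these enzymes, tyrosine aminotransferase and tryptophan dioxygenase among them, are classical markers of the mature hepatocyte that are induced by glucocorticoids or glucagon.

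Libraries held 13122355 to 16984971 counts in CAPZ_KO and 12060350 to 18916315 in WT, and the lowest count of any of the 41 genes in a library was 154. Levels are given as CPM, which are counts scaled to library size with the TMM factors of edgeR, in the order of replicates 1 to 4, and every adjusted p for a gene comes from the quasi-likelihood test of edgeR unless another test is named, with a call at an adjusted p under 0.05. Capzb itself averaged 72.5 ± 6.80 CPM in CAPZ_KO and 120.2 ± 13.4 CPM in WT (SD, n = 4 each), with a log2 fold change of −0.73 ± 0.125 (SE, adjusted p = 0.00134), or −0.10 (adjusted p = 0.442) with library sizes alone as the scale. Of 10 hepatocyte markers 8 fell (median log2 fold change −1.38), where 19.0% of all genes tested fell, and Apoa1 and Trf were not called. The summed level of the 10 was 66194 to 93764 CPM in CAPZ_KO and 201400.0 to 256510.0 CPM in WT. Alb alone averaged 34699 CPM in CAPZ_KO and 146750 CPM in WT. All 8 markers of stellate cells and fibroblasts rose, from a list summing to 829 to 1293 CPM in CAPZ_KO and 318 to 385 CPM in WT, as did 6 of 8 markers of monocyte-derived macrophages (538 to 786 CPM in CAPZ_KO, 299 to 469 CPM in WT). Ly6c2 and Lyz2 were not called, and Lyz2 averaged 482 CPM in CAPZ_KO and 305 CPM in WT, most of the macrophage sum. Of 7 cholangiocyte markers tested 5 rose, the list of 8 summing to 363 to 1081 CPM in CAPZ_KO and 33.5 to 66.2 CPM in WT, while Krt7 and Krt19 were not called and Sctr was at 0 in WT. Most of the cholangiocyte sum was Spp1, which averaged 604 CPM in CAPZ_KO and 30.2 CPM in WT. Markers of Kupffer cells and of endothelium rose in 2 of 6 each, and of T, NK and B cells in 0 of 7 tested, where 22.4% of all genes tested rose. CAPZ_KO 4 and WT 4 were read as female by Xist, at 249 and 297 CPM by library size, against at most 0.34 in the other 6.

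Amino acid breakdown genes were mostly lower in CAPZ_KO liver. Of the 41 genes, 36 fell, 0 rose and 5 did not pass the test, while 19.0% of the 12985 genes tested fell and 22.4% rose. Among the more abundant genes, with a mean of at least 10 CPM, 25.5% fell. The median log2 fold change of the 41 was −1.19, against 0.00 (to 2 decimals) over all genes tested, and the values ran from −2.55 to 0.41. The fall was at least 2-fold for 26 genes, a size and direction found in 7.10% of all genes tested. In 35 of the 41 every CAPZ_KO library lay below every WT library, as in 18.2% of all genes tested. Together the 41 genes took 0.772, 0.919, 0.791 and 1.26% of all counts in the CAPZ_KO libraries and 1.55, 1.33, 1.78 and 1.86% in the WT libraries. On the TMM scale their summed level was 7602 ± 2127 CPM in CAPZ_KO and 20200.0 ± 2644 CPM in WT (SD, n = 4 each). In whole tissue, fewer hepatocytes and less RNA per hepatocyte cannot be told apart, and the part of the marker changes above in these falls was not tested. With library sizes alone as the scale, which moves the median of all tested genes by 0.625, 25 of the 41 fell and 3 (Sdsl, Gldc and Gpt2) rose. On that scale 700 of all 12985 genes tested fell and 7665 rose. The 11 of the 41 that lost their call were Ftcd, Kynu, Amt, Gcsh, Got2, Prodh, Bckdhb, Mccc1, Acad8, Hibch and Aass.

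**Figure D1:**
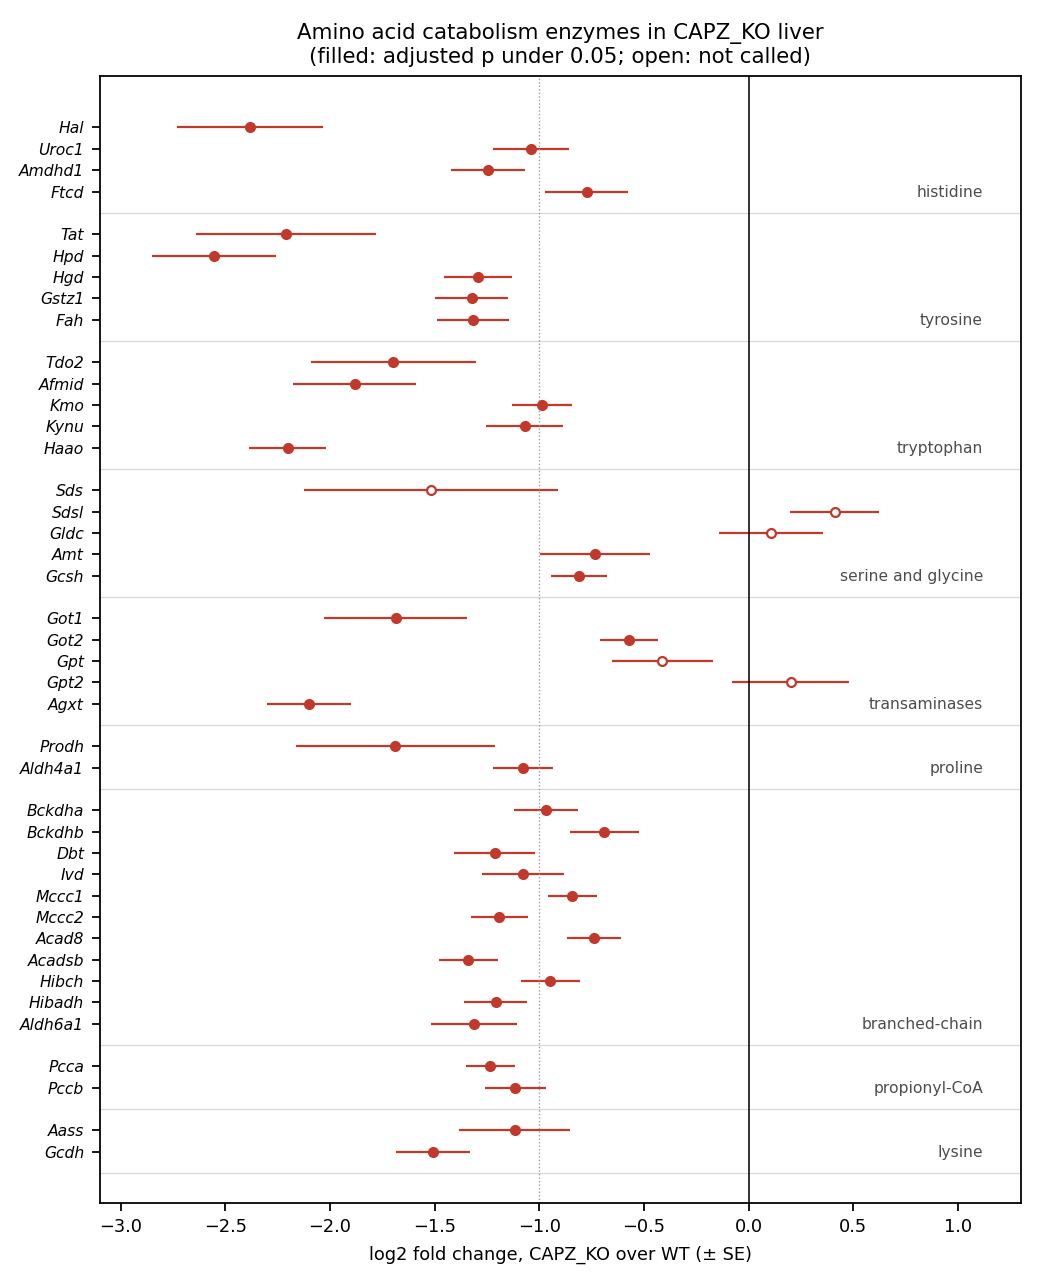
Log2 fold change of each of the 41 genes in CAPZ_KO over WT liver (horizontal axis, ± SE, 4 libraries a group), grouped by pathway on the vertical axis, with filled points at an adjusted p under 0.05 and the dotted line at −1. The filled points all lie left of 0, and the 5 open points are Sds, Sdsl, Gldc, Gpt and Gpt2.

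All 4 genes of histidine breakdown fell, against 19.0% of all genes tested, with the largest fold change at the entry. Hal, histidine ammonia lyase, turns histidine into urocanate. It stood at 48.5, 138, 63.4 and 149 CPM in CAPZ_KO livers and 585, 514, 456 and 529 CPM in WT livers. No CAPZ_KO library came near the WT range, and the log2 fold change was −2.38 ± 0.347 (SE, adjusted p = 0.000578), a 5.22-fold fall. Uroc1, urocanate hydratase, was at 229, 332, 243 and 349.9 CPM in CAPZ_KO, against 496, 599, 588 and 690.5 CPM in WT, a log2 fold change of −1.04 ± 0.182 (SE, adjusted p = 0.00149). The groups were apart here too. Amdhd1, imidazolonepropionase, stood at 123, 143, 135 and 112 CPM in the CAPZ_KO libraries, against 397, 310.5, 278 and 230.0 CPM in the WT libraries, a log2 fold change of −1.25 ± 0.178 (SE, adjusted p = 0.000466). Ftcd, the bifunctional enzyme that passes the formimino group to folate, was at 188, 269, 231 and 329 CPM in CAPZ_KO livers and 439.6, 384, 543 and 373 CPM in WT livers, a log2 fold change of −0.77 ± 0.198 (SE, adjusted p = 0.0109). The margin was narrow for Ftcd, whose highest CAPZ_KO library lay just under the lowest WT library, and with library sizes alone its value was −0.16 (adjusted p = 0.446). Hal (chromosome 10, 93488768 to 93519304, plus strand, GRCm38) and Amdhd1 (chromosome 10, 93523338 to 93540033, minus strand) are neighbours that point towards each other, with 4033 bases and no other coding gene between them.

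Tyrosine breakdown held the 2 genes most abundant per length of exon and the deepest single fall. All 5 of its genes fell at least 2-fold, against 7.10% of all genes tested. Tat, tyrosine aminotransferase (chromosome 8, 109990437 to 109999803, plus strand), starts the pathway. It was at 287, 469, 326 and 1042 CPM in CAPZ_KO, against 2522, 1520.1, 3468 and 2316 CPM in WT. CAPZ_KO 4 stood above the other 3 CAPZ_KO libraries and still below every WT library, and the log2 fold change was −2.21 ± 0.431 (SE, adjusted p = 0.00301). Without the 2 female libraries that value was −2.80. Hpd, hydroxyphenylpyruvate dioxygenase (chromosome 5, 123171807 to 123182727, minus strand), makes homogentisate. It was at 380.2, 549, 292 and 699 CPM in the CAPZ_KO libraries, against 2947, 2031, 2649.6 and 3642 CPM in the WT libraries, a 5.87-fold fall with a log2 fold change of −2.55 ± 0.296 (SE, adjusted p = 0.000154). The lowest WT library exceeded the highest CAPZ_KO library by a wide margin. Hgd, which opens the ring of homogentisate, was at 313, 357, 360.1 and 406 CPM in CAPZ_KO livers and 949.6, 686, 1017 and 869 CPM in WT livers, a log2 fold change of −1.29 ± 0.163 (SE, adjusted p = 0.000239). Gstz1, maleylacetoacetate isomerase, was at 319, 448, 384 and 508 CPM in CAPZ_KO, against 1027, 911, 1075 and 1137 CPM in WT, a log2 fold change of −1.32 ± 0.173 (SE, adjusted p = 0.000291). Fah, which splits fumarylacetoacetate into fumarate and acetoacetate, was at 289, 391, 316 and 444 CPM in the CAPZ_KO libraries, against 974, 788, 887 and 941 CPM in the WT libraries, a log2 fold change of −1.32 ± 0.171 (SE, adjusted p = 0.000275). These last 3 steps had almost the same fold change, and none of their libraries overlapped between the groups.

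The promoters of Hpd and Hal are shown because these genes had the deepest falls of the 41 and were lower together. Each is the 250 bases before the RefSeq start (GRCm38.p6), read 5′ to 3′ on the strand of the gene, at chr5:123182724-123182973 (minus strand) for Hpd and chr10:93488518-93488767 (plus strand) for Hal. Capitals mark letters of a searched motif.
Hpd: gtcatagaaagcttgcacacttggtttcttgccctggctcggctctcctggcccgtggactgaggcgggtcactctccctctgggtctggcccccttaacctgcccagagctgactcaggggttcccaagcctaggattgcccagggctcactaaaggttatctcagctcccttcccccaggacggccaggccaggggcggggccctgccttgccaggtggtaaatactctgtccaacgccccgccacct
Hal: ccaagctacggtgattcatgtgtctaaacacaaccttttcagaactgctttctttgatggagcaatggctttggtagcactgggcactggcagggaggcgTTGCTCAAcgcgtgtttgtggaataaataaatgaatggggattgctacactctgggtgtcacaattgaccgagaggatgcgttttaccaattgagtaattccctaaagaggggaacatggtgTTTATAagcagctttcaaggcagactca
The Hal window held TTGCNNAA, a form of the C/EBP motif, from −150 to −143, and the TATA box TATAAA, read on the other strand, from −28 to −23, counted from the start with −1 as the last base before it. The Hpd window held none of the motifs searched. RefSeq windows were found for 36 of the 41 genes, 40 windows in all. On either strand TTGCNNAA was in 12.5% of them, against 9.56% of all 32851 windows, and TATAAA in 12.5%, against 12.37%. The HNF4A motif as CAAAGTCCA or CAAAGGTCA was in 0 of the 40 and 0.81% of all, the HNF1 motif (GTTAAT and ATTAAC with 1 base between) in 0 and 0.01%, and the glucocorticoid response element (GNACA and TGTNC with 3 bases between) in 0 and 0.39%. No 2 of these motifs overlapped in the windows shown.

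**Figure D2:**
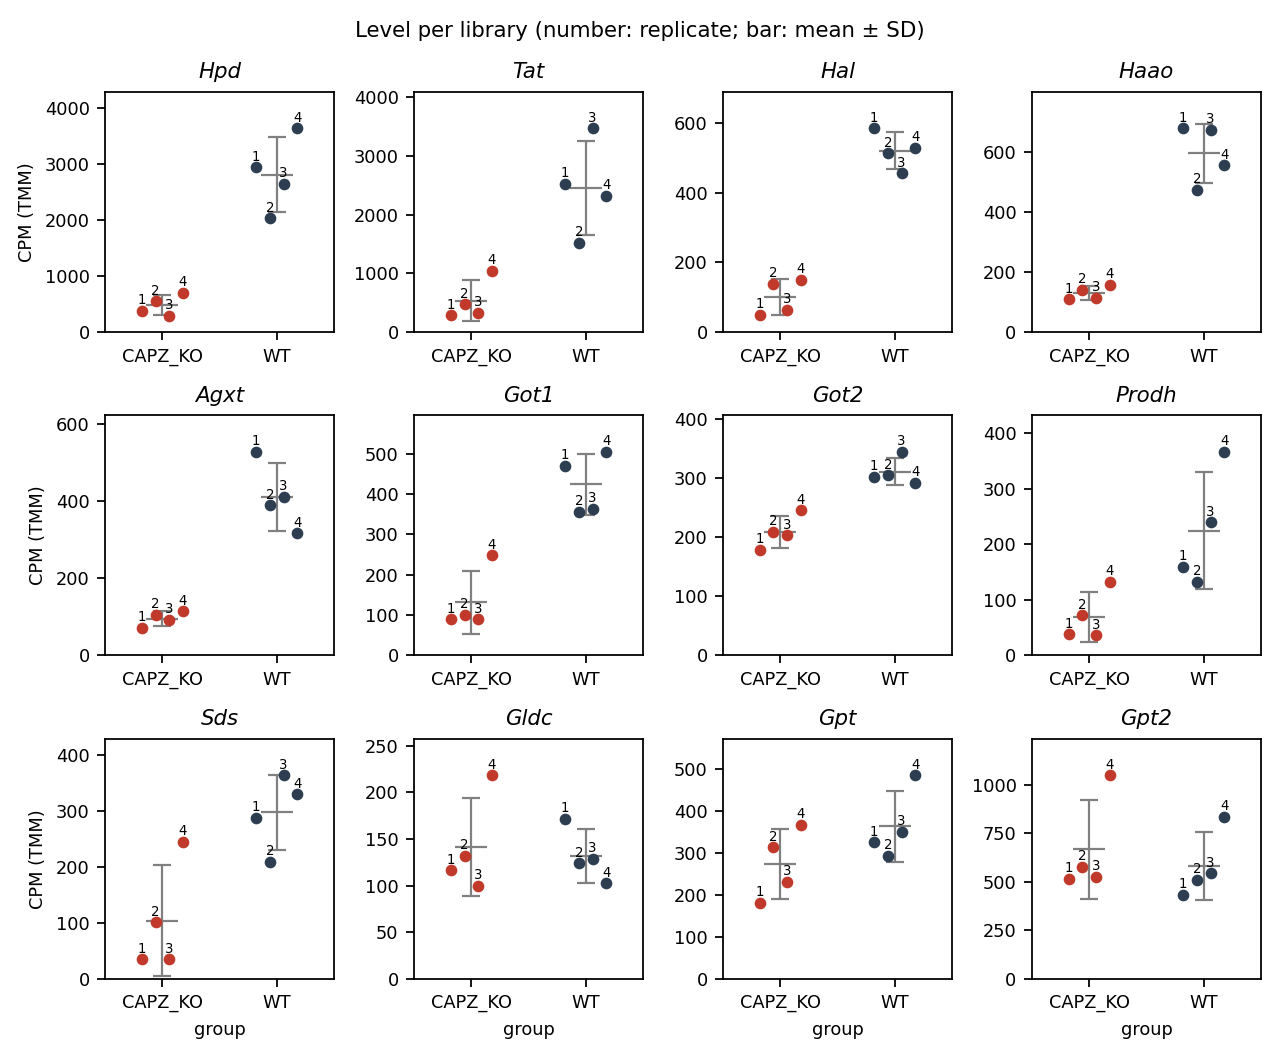
Level per library in CPM after TMM scaling (vertical axes, from 0) of 12 of the genes in CAPZ_KO (left, red) and WT (right, dark) liver, with the replicate number beside each point and a grey bar for the mean ± SD of 4 libraries. The groups are apart for Hpd, Tat, Hal, Haao, Agxt, Got1, Got2 and, narrowly, Prodh, and overlap for Sds, Gldc, Gpt and Gpt2, where CAPZ_KO 4 is the highest CAPZ_KO library.

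Tryptophan is degraded through kynurenine towards NAD or acetyl-CoA. All 5 genes of that route among the 41 fell, against 19.0% of all genes tested. Of later genes on the further list, Qprt, on the branch to NAD, had a log2 fold change of −0.38 ± 0.183 (SE, adjusted p = 0.122), and Acmsd, on the branch to acetyl-CoA, had one of 0.43 ± 0.327 (SE, adjusted p = 0.313). Neither was called. Tdo2, tryptophan dioxygenase, the hepatic entry enzyme, was at 293, 567, 314 and 936 CPM in CAPZ_KO livers and 1184, 1397, 2532 and 1728 CPM in WT livers. Again CAPZ_KO 4 was the highest of its group and below the WT range, with a log2 fold change of −1.70 ± 0.395 (SE, adjusted p = 0.00726). Afmid, kynurenine formamidase, was at 32.4, 69.3, 35.2 and 70.2 CPM in CAPZ_KO, against 147, 180.4, 176 and 259.8 CPM in WT, a log2 fold change of −1.88 ± 0.295 (SE, adjusted p = 0.000841); its exons overlap those of neighbouring genes on both strands. Kmo, kynurenine monooxygenase of the mitochondrial outer membrane, was at 177, 201, 180.0 and 226 CPM in the CAPZ_KO libraries, against 370.2, 335, 434 and 415 CPM in the WT libraries, a log2 fold change of −0.99 ± 0.143 (SE, adjusted p = 0.000504). Kynu, kynureninase, was at 104, 89.0, 102 and 99.2 CPM in CAPZ_KO livers and 248, 197, 247 and 138 CPM in WT livers, a log2 fold change of −1.07 ± 0.186 (SE, adjusted p = 0.0014). The 4 CAPZ_KO libraries were close together for Kynu and lay below WT 4, the lowest of its group, and with library sizes alone the value was −0.43 (adjusted p = 0.0513). Haao, hydroxyanthranilate dioxygenase (chromosome 17, 83831156 to 83847963, minus strand), produces the precursor of quinolinate and so of NAD. It was at 108, 139.5, 113 and 157 CPM in CAPZ_KO, against 678, 473, 674 and 555 CPM in WT, a log2 fold change of −2.20 ± 0.183 (SE, adjusted p = 2.87e-05). It had the smallest adjusted p of the 41 genes, and its 2 groups were several-fold apart.

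Of the 5 genes of serine and glycine breakdown 2 fell and 3 were not called, where 19.0% of all genes tested fell. Sds, the serine dehydratase that makes pyruvate, was at 34.7, 101, 34.7 and 244 CPM in the CAPZ_KO libraries, against 287, 209, 363 and 329 CPM in the WT libraries. CAPZ_KO 1 and 3 were far below WT and CAPZ_KO 4 was within the WT range, and the log2 fold change of −1.52 ± 0.608 (SE, adjusted p = 0.0749) was not called. Without CAPZ_KO 4 the log2 fold change was −2.39 with an adjusted p of 0.00291, and without both female libraries it was −2.34 with an adjusted p of 0.00732. DESeq2 and limma-voom, on all 8 libraries, gave adjusted p of 0.0458 and 0.0196. Sdsl, a related dehydratase, was at 18.1, 18.8, 17.1 and 20.9 CPM in CAPZ_KO livers and 21.0, 11.8, 13.9 and 9.98 CPM in WT livers. Its groups overlapped through WT 1, and the log2 fold change was 0.41 ± 0.212 (SE, adjusted p = 0.145), or 0.65 with an adjusted p of 0.0081 without WT 1. Sds (chromosome 5, 120476526 to 120483932, plus strand) and Sdsl (chromosome 5, 120458186 to 120472810, minus strand) lie back to back, 3715 bases apart with no coding gene between them.

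The glycine cleavage system joins a decarboxylase (Gldc), an aminomethyltransferase (Amt) and a lipoyl carrier (Gcsh) in the mitochondrial matrix. Gldc was at 117, 132, 99.97 and 218 CPM in CAPZ_KO, against 171, 124, 129 and 103 CPM in WT. The groups overlapped, and the log2 fold change of 0.11 ± 0.249 (SE, adjusted p = 0.751) was not called. Amt was at 30.1, 21.1, 25.6 and 16.5 CPM in the CAPZ_KO libraries, against 57.7, 37.5, 36.0 and 24.4 CPM in the WT libraries. The groups overlapped, and the log2 fold change of −0.73 ± 0.263 (SE, adjusted p = 0.0473) lost its call when WT 1, 2 or 3 or CAPZ_KO 2, 3 or 4 was left out (adjusted p of 0.0659 to 0.106) and by limma-voom (adjusted p = 0.0575). Gcsh was at 80.3, 96.9, 90.0 and 83.8 CPM in CAPZ_KO livers and 186, 138, 145 and 147 CPM in WT livers, with the groups apart and a log2 fold change of −0.81 ± 0.133 (SE, adjusted p = 0.00101). With library sizes alone the log2 fold change of Amt was −0.08 (adjusted p = 0.791) and that of Gcsh −0.18 (adjusted p = 0.204).

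Among the transaminases, 3 of 5 fell and both alanine transaminases were not called, where 19.0% of all genes tested fell. Got1, the cytosolic aspartate transaminase (chromosome 19, 43499752 to 43524605, minus strand), was at 89.4, 100.1, 89.3 and 248 CPM in CAPZ_KO, against 470.3, 357, 364 and 505 CPM in WT. CAPZ_KO 1, 2 and 3 were nearly equal and CAPZ_KO 4 was well above them, though below WT, with a log2 fold change of −1.69 ± 0.34 (SE, adjusted p = 0.0034). Got2, its mitochondrial counterpart (chromosome 8, 95864134 to 95888547, minus strand), was at 178, 209, 203 and 245 CPM in the CAPZ_KO libraries, against 302, 304, 344 and 291 CPM in the WT libraries. The groups were apart by a smaller margin, and the log2 fold change was −0.57 ± 0.137 (SE, adjusted p = 0.00773), or 0.05 (adjusted p = 0.735) with library sizes alone. Gpt, the cytosolic alanine transaminase, was at 181, 314, 232 and 368 CPM in CAPZ_KO livers and 326, 293, 351 and 486 CPM in WT livers, a log2 fold change of −0.41 ± 0.24 (SE, adjusted p = 0.194), or 0.19 with library sizes alone. Gpt2, the mitochondrial form, was at 517, 578, 527 and 1049.9 CPM in CAPZ_KO, against 434, 510.2, 544 and 837 CPM in WT, a log2 fold change of 0.20 ± 0.278 (SE, adjusted p = 0.591). In both alanine transaminases the groups overlapped, and for Gpt2 CAPZ_KO 4 was the highest of all 8 libraries. Agxt, the transaminase that detoxifies glyoxylate (chromosome 1, 93135240 to 93145421, plus strand), was at 72.0, 105, 91.8 and 114 CPM in the CAPZ_KO libraries, against 528, 389, 412 and 317 CPM in the WT libraries. Its groups were far apart, with a log2 fold change of −2.10 ± 0.201 (SE, adjusted p = 5.82e-05).

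Both steps from proline to glutamate fell, where 19.0% of all genes tested fell. Prodh, proline dehydrogenase, was at 38.0, 72.0, 36.3 and 132.2 CPM in CAPZ_KO livers and 159.1, 132.5, 239.6 and 366.6 CPM in WT livers. CAPZ_KO 4 and WT 2 almost touched, and the log2 fold change was −1.69 ± 0.475 (SE, adjusted p = 0.0193), or −1.10 (adjusted p = 0.0613) with library sizes alone. Aldh4a1, the dehydrogenase that completes glutamate, was at 227, 269, 290.4 and 288 CPM in CAPZ_KO, against 532, 509, 607 and 621 CPM in WT, with the groups well apart and a log2 fold change of −1.08 ± 0.142 (SE, adjusted p = 0.000299).

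All 11 branched-chain genes fell, each with every CAPZ_KO library below every WT library, over the narrow range of log2 fold changes from −1.34 to −0.69. Over all genes tested 19.0% fell, and in 18.2% every CAPZ_KO library lay below every WT library. With library sizes alone 4 of the 11 lost their call, at −0.08 (adjusted p = 0.699) for Bckdhb, −0.11 (adjusted p = 0.447) for Acad8, −0.22 (adjusted p = 0.154) for Mccc1 and −0.33 (adjusted p = 0.083) for Hibch. The shared, committed step is the ketoacid dehydrogenase, whose decarboxylase subunits are Bckdha and Bckdhb and whose acyltransferase core is Dbt. Bckdha was at 113, 148, 134 and 172 CPM in the CAPZ_KO libraries, against 296, 243, 292 and 279.9 CPM in the WT libraries, a log2 fold change of −0.97 ± 0.154 (SE, adjusted p = 0.000836). Bckdhb was at 48.3, 64.3, 52.2 and 60.3 CPM in CAPZ_KO livers and 92.5, 86.1, 70.3 and 114 CPM in WT livers, a log2 fold change of −0.69 ± 0.163 (SE, adjusted p = 0.00728). Dbt was at 44.1, 46.3, 40.5 and 61.5 CPM in CAPZ_KO, against 88.8, 89.4, 131 and 136 CPM in WT, a log2 fold change of −1.21 ± 0.193 (SE, adjusted p = 0.000842). These 3 subunits were thus lower, Bckdhb by the least of them in these values. Dld, the dehydrogenase subunit, is not among the 41.

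Leucine then passes through Ivd, isovaleryl-CoA dehydrogenase, and the methylcrotonyl-CoA carboxylase of Mccc1 and Mccc2. Ivd was at 67.8, 97.3, 78.2 and 123 CPM in the CAPZ_KO libraries, against 164, 173, 209 and 228 CPM in the WT libraries, a log2 fold change of −1.08 ± 0.198 (SE, adjusted p = 0.0019). Mccc1 was at 36.8, 35.8, 37.1 and 39.4 CPM in CAPZ_KO livers and 64.2, 57.6, 73.2 and 72.3 CPM in WT livers, a log2 fold change of −0.84 ± 0.116 (SE, adjusted p = 0.000373). Mccc2 was at 35.8, 40.5, 32.2 and 45.8 CPM in CAPZ_KO, against 87.0, 78.5, 91.3 and 95.4 CPM in WT, a log2 fold change of −1.19 ± 0.136 (SE, adjusted p = 0.000142). Both carboxylase subunits had groups well apart. Acadsb, which acts on the isoleucine branch, was at 68.8, 54.9, 60.2 and 73.9 CPM in the CAPZ_KO libraries, against 157, 150.04, 193 and 152 CPM in the WT libraries, a log2 fold change of −1.34 ± 0.141 (SE, adjusted p = 9.04e-05), the deepest fall of the branched-chain genes.

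The valine branch runs through Acad8, Hibch, Hibadh and Aldh6a1. Acad8, isobutyryl-CoA dehydrogenase, was at 40.5, 42.7, 46.9 and 49.3 CPM in CAPZ_KO livers and 84.2, 64.2, 81.8 and 68.9 CPM in WT livers, a log2 fold change of −0.74 ± 0.129 (SE, adjusted p = 0.00149). Hibch, the hydrolase that frees hydroxyisobutyrate, was at 51.0, 55.2, 60.8 and 56.3 CPM in CAPZ_KO, against 104, 89.2, 103 and 135 CPM in WT, a log2 fold change of −0.95 ± 0.142 (SE, adjusted p = 0.000606). Both fell by less than 2-fold. Hibadh, hydroxyisobutyrate dehydrogenase, was at 198, 201, 195 and 229 CPM in the CAPZ_KO libraries, against 554, 378, 465 and 507 CPM in the WT libraries, a log2 fold change of −1.21 ± 0.151 (SE, adjusted p = 0.000216). Aldh6a1, methylmalonate semialdehyde dehydrogenase, was at 192, 223, 190.2 and 298 CPM in CAPZ_KO livers and 430.1, 531, 564 and 719 CPM in WT livers, a log2 fold change of −1.31 ± 0.205 (SE, adjusted p = 0.000757). These later steps fell by more than 2-fold.

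Valine and isoleucine end in propionyl-CoA, which the carboxylase of Pcca and Pccb takes up. Pcca was at 40.9, 44.2, 41.2 and 47.7 CPM in CAPZ_KO, against 103, 95.9, 116 and 93.7 CPM in WT, a log2 fold change of −1.23 ± 0.118 (SE, adjusted p = 5.63e-05). Pccb was at 78.6, 99.4, 98.9 and 117 CPM in the CAPZ_KO libraries, against 204, 193, 238 and 218 CPM in the WT libraries, a log2 fold change of −1.12 ± 0.146 (SE, adjusted p = 0.000289). The subunits fell side by side and the groups were far apart, where 19.0% of all genes tested fell. Lysine enters through Aass, aminoadipate semialdehyde synthase, at 141, 159, 155 and 308 CPM in CAPZ_KO livers and 352, 339.7, 431 and 529 CPM in WT livers, a log2 fold change of −1.12 ± 0.266 (SE, adjusted p = 0.00756). Gcdh, glutaryl-CoA dehydrogenase, which lysine and tryptophan share, was at 190.0, 284, 222 and 299.7 CPM in CAPZ_KO, against 770.3, 632, 650.1 and 781 CPM in WT, a log2 fold change of −1.51 ± 0.179 (SE, adjusted p = 0.000173). Aass in CAPZ_KO 4 lay near WT 2, and its value with library sizes alone was −0.51 (adjusted p = 0.104), while the Gcdh groups were distant.

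**Figure D3:**
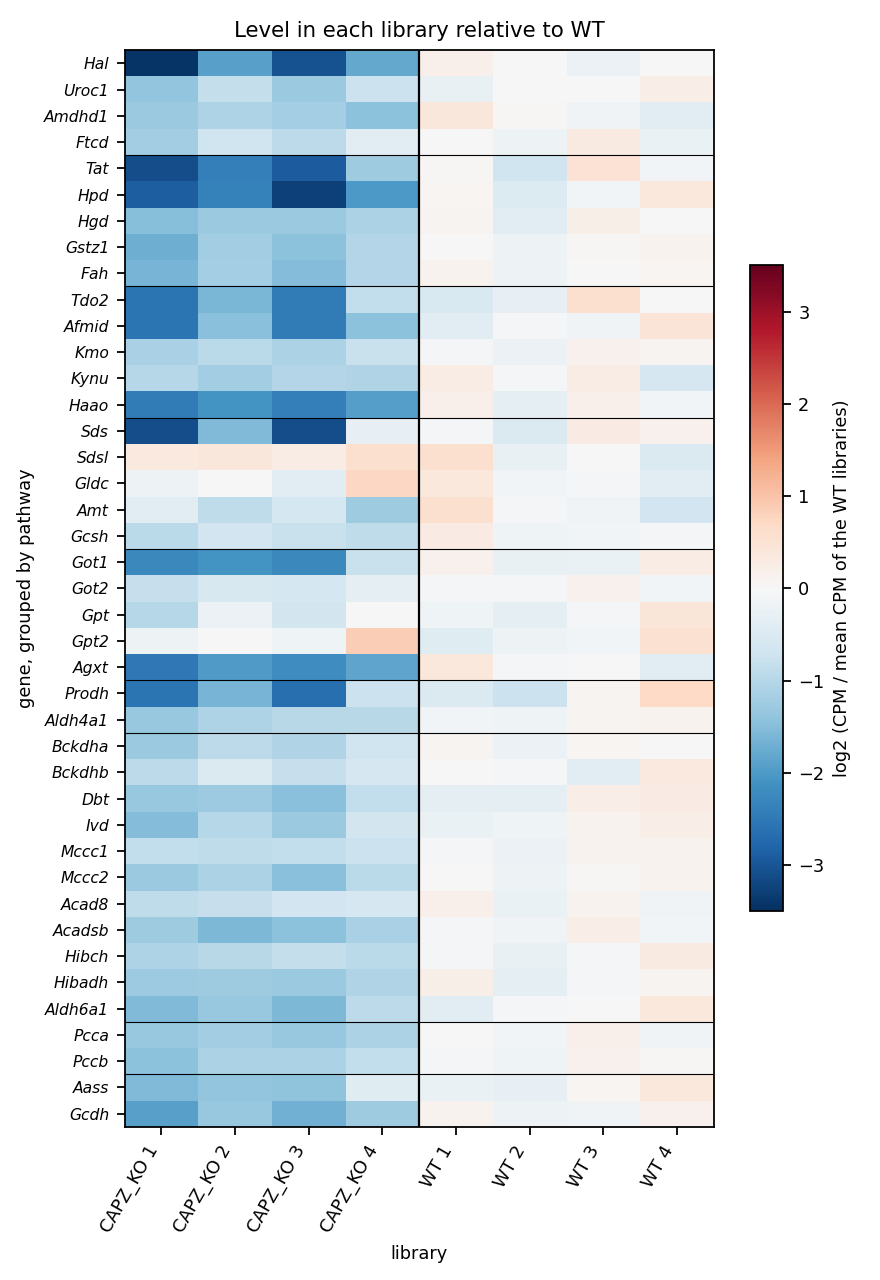
Log2 of the level of each gene in each library over the mean level of the 4 WT libraries (colour), with genes in rows by pathway and libraries in columns, CAPZ_KO left of WT. Blue prevails in all 4 CAPZ_KO columns, and the column of CAPZ_KO 4 is paler than the others, being the highest of its group in 34 of 41 genes.

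The CAPZ_KO libraries were not alike. CAPZ_KO 4 held the highest CAPZ_KO level of 34 of the 41 genes, and CAPZ_KO 1 the lowest of 27. As a median over the 41 genes, CAPZ_KO 1, 2, 3 and 4 stood at 39.9%, 43.6%, 40.9% and 54.4% of the WT mean. In WT the highest level was in WT 1, 3 and 4 for 13, 11 and 17 genes and in WT 2 for 0, and WT 2 was the lowest for 23. CAPZ_KO 4 is also the female library of its group, and its Capzb level (76.4 CPM) lay within those of the other CAPZ_KO libraries (64.5 to 79.6 CPM). Without CAPZ_KO 4, 36 of the 41 genes fell, against 2232 of all 13141 tested. Without both female libraries 37 of the 41 fell, against 2108 of all 13056 tested.

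Partner genes were compared as ratios of counts within a library, which do not depend on scaling. Over 7 pairs the smallest p that 4 against 4 libraries allow is 0.0286, which became 0.05 after adjustment for the 4 pairs that reached it, so that 0 pairs passed an adjusted p under 0.05. Got1 over Got2 was 0.501, 0.48, 0.44 and 1.01 in the CAPZ_KO libraries and 1.56, 1.17, 1.06 and 1.73 in the WT libraries (difference of mean log2 ratios −1.24, exact two-sided permutation p = 0.0286, adjusted p = 0.05). Gpt over Gpt2 was 0.35, 0.543, 0.44 and 0.351 in the CAPZ_KO libraries and 0.751, 0.574, 0.646 and 0.581 in the WT libraries (difference of mean log2 ratios −0.62, exact two-sided permutation p = 0.0286, adjusted p = 0.05). In both pairs the ratio of the cytosolic to the mitochondrial form was below the WT range in all 4 CAPZ_KO libraries. Sds over Sdsl was 1.91, 5.37, 2.03 and 11.7 in the CAPZ_KO libraries and 13.6, 17.7, 26.0 and 32.8 in the WT libraries (difference of mean log2 ratios −2.43, exact two-sided permutation p = 0.0286, adjusted p = 0.05). Mccc1 over Mccc2 was 1.03, 0.882, 1.15 and 0.862 in the CAPZ_KO libraries and 0.739, 0.734, 0.801 and 0.758 in the WT libraries (difference of mean log2 ratios 0.36, exact two-sided permutation p = 0.0286, adjusted p = 0.05). The Mccc ratio was above the WT range in all 4 CAPZ_KO libraries. The remaining pairs overlapped between the groups. Bckdha over Bckdhb was 2.33, 2.30, 2.57 and 2.86 in the CAPZ_KO libraries and 3.20, 2.82, 4.15 and 2.45 in the WT libraries (difference of mean log2 ratios −0.31, exact two-sided permutation p = 0.143, adjusted p = 0.167). Pcca over Pccb was 0.52, 0.445, 0.416 and 0.409 in the CAPZ_KO libraries and 0.506, 0.497, 0.49 and 0.429 in the WT libraries (difference of mean log2 ratios −0.11, exact two-sided permutation p = 0.343, adjusted p = 0.343). Gldc over Amt was 3.87, 6.27, 3.90 and 13.3 in the CAPZ_KO libraries and 2.97, 3.31, 3.57 and 4.19 in the WT libraries (difference of mean log2 ratios 0.77, exact two-sided permutation p = 0.0857, adjusted p = 0.12). The Gldc over Amt difference was 0.39 without CAPZ_KO 4.

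**Figure D4:**
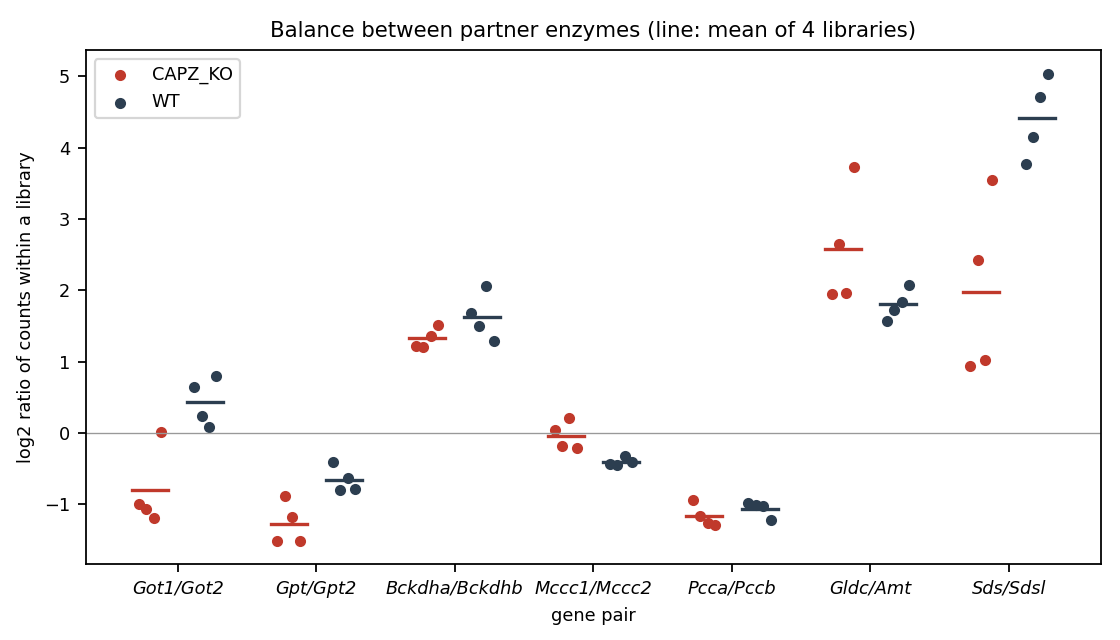
Log2 ratio of the counts of 2 partner genes within each library (vertical axis) for 7 pairs, with CAPZ_KO (red) left of WT (dark) and a line at the mean of 4 libraries. Got1/Got2, Gpt/Gpt2 and Sds/Sdsl are lower and Mccc1/Mccc2 is higher in all CAPZ_KO libraries than in any WT library.

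Per length of exon, the order of abundance among the 41 genes stayed similar at the top. Hpd and Tat had ranks 1 and 2 in both groups, with 226 in CAPZ_KO and 1324 in WT for Hpd and 221 in CAPZ_KO and 1021 in WT for Tat, in CPM per kilobase of exon (group means). Gpt2 had rank 6 in CAPZ_KO, at 118, and rank 19 in WT, at 103. Agxt had rank 14 in CAPZ_KO, at 56.5, and rank 7 in WT, at 242. Mccc1 was the lowest by this measure in both, with 3.40 in CAPZ_KO and 6.10 in WT. The length was the union of all annotated exons, 10952 bases for Mccc1 and 2802 for Mccc2, so ranks depend on the annotation. By CPM alone Sdsl was the lowest, averaging 18.7 in CAPZ_KO and 14.2 in WT, against 37.3 and 66.8 for Mccc1. By place in the cell, 14 of 17 cytosolic enzymes fell (median over the 17 −1.32), and 20 of 22 enzymes of the mitochondrial matrix fell (median over the 22 −1.08), a difference that was not tested. Of all genes tested 19.0% fell.

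Other amino acid breakdown genes, on a list of 49 that holds none of the 41, were mostly lower as well. Of 47 with enough counts, 36 fell, 1 rose and 10 were not called, and the median was −1.08, where 19.0% of all genes tested fell and 22.4% rose. Aspg, an asparaginase, was at 19.9, 40.3, 28.2 and 32.4 CPM in the CAPZ_KO libraries, against 164, 163, 219.7 and 212 CPM in the WT libraries, a log2 fold change of −2.65 ± 0.22 (SE, adjusted p = 2.82e-05). Oat, ornithine aminotransferase, averaged 220.2 ± 62.1 CPM in CAPZ_KO and 1236 ± 491 CPM in WT (SD, n = 4 each), a log2 fold change of −2.49 ± 0.306 (SE, adjusted p = 0.000212). Prodh2, the hydroxyproline counterpart of Prodh, averaged 41.4 ± 6.38 CPM in CAPZ_KO and 204 ± 29.3 CPM in WT (SD, n = 4 each), a log2 fold change of −2.30 ± 0.16 (SE, adjusted p = 1.14e-05). Gls2, the glutaminase of mature liver, averaged 108 ± 39.4 CPM in CAPZ_KO and 536 ± 108 CPM in WT (SD, n = 4 each), a log2 fold change of −2.31 ± 0.262 (SE, adjusted p = 0.000138). The gene that rose was Asrgl1, another enzyme with asparaginase activity, at 26.7, 31.0, 36.3 and 44.6 CPM in CAPZ_KO livers and 9.33, 15.5, 13.1 and 24.7 CPM in WT livers, a log2 fold change of 1.14 ± 0.277 (SE, adjusted p = 0.00876).

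Genes of amino acid synthesis were mostly higher, several of them at low levels. Of 10 tested on a list of 11, 8 rose and 2 fell, and the median log2 fold change was 1.14, where 22.4% of all genes tested rose and 19.0% fell. Among genes with a mean of at least 10 CPM 16.9% rose, so rises were more common among genes at lower levels. The summed level of the list was lower, at 324 CPM in CAPZ_KO and 1033 CPM in WT (means). Most of that sum was Glul. The count that rose was 5 without CAPZ_KO 3. Aldh18a1, which makes the precursor of proline that Prodh and Aldh4a1 use in the other direction, was at 17.3, 11.6, 20.1 and 9.61 CPM in CAPZ_KO, against 2.68, 2.63, 1.35 and 2.33 CPM in WT, a log2 fold change of 2.71 ± 0.3 (SE, adjusted p = 0.000123). Pycr1, the reductase that completes proline, was at 1.53, 1.196, 1.87 and 0.767 CPM in the CAPZ_KO libraries, against 0.107, 0.263, 0.355 and 0.0648 CPM in the WT libraries, a log2 fold change of 2.68 ± 0.502 (SE, adjusted p = 0.00216). Neither gene's groups overlapped, and Pycr1 stayed near 1 CPM in CAPZ_KO. Asns, asparagine synthetase, averaged 16.9 ± 5.96 CPM in CAPZ_KO and 3.92 ± 3.33 CPM in WT (SD, n = 4 each). Its log2 fold change was 2.11 ± 0.585 (SE, adjusted p = 0.0184), with 2.86 without WT 3, and its adjusted p was 0.0516 to 0.0541 without WT 2, CAPZ_KO 1 or CAPZ_KO 3. Psat1, the transaminase of serine synthesis, averaged 4.38 ± 0.672 CPM in CAPZ_KO and 1.70 ± 0.682 CPM in WT (SD, n = 4 each), a log2 fold change of 1.39 ± 0.295 (SE, adjusted p = 0.00408). Glul, glutamine synthetase, a gene of hepatocytes around the central vein, fell, averaging 230.1 ± 124 CPM in CAPZ_KO and 976 ± 155 CPM in WT (SD, n = 4 each) with a log2 fold change of −2.08 ± 0.352 (SE, adjusted p = 0.00128). Pycrl, a reductase related to Pycr1, had a log2 fold change of −0.63 ± 0.196 (SE, adjusted p = 0.0265), with an adjusted p of 0.057 to 0.0689 without WT 3, CAPZ_KO 1 or CAPZ_KO 2.

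**Figure D5:**
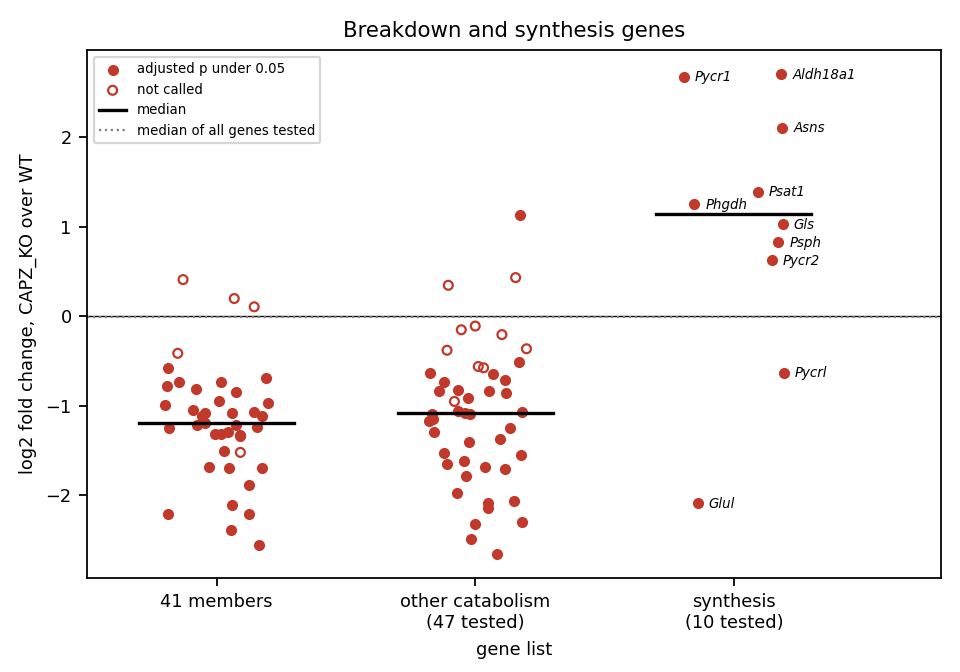
Log2 fold change in CAPZ_KO over WT liver (vertical axis) of the 41 breakdown genes, 47 other breakdown genes and 10 synthesis genes, with filled points at an adjusted p under 0.05, black lines at the list medians and a dotted line at the median of all genes tested. The medians are −1.19, −1.08 and 1.14, and in the synthesis list Glul and Pycrl lie below 0.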

How the data were processed

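Stranded poly(A) libraries of perfused liver were sequenced, per the labels' protocols. The authors deposited whole-number read counts by gene symbol, with a column for each library. The submitters' processing notes name bcl2fastq, STAR 2.5.3a, featureCounts, R 3.3.1, edgeR and the build mm10, with no role or order. Which annotation and strand setting were used for counting, and what became of multiply mapped reads, is not given in the sources used here. Exons of Afmid, Aldh6a1, Bckdha, Got2, Gstz1, Mccc1, Pcca and Sds overlap a gene on the opposite strand and those of Afmid, Aldh4a1 and Hibadh 1 on the same strand (GENCODE vM21, GRCm38), so their counts are less certain.

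Genes were kept by filterByExpr (minimum count 10, minimum total 15), which left 12985, scaled by TMM (factors 1.18 to 1.33 in CAPZ_KO, 0.773 to 0.847 in WT) and tested by the edgeR 4.0.16 quasi-likelihood test with robust dispersion on all 8 libraries, with Benjamini-Hochberg adjustment over all genes at a threshold of 0.05, in R 4.3.3 with limma 3.58.1 and DESeq2 1.42.0 for alternatives. Any 2 libraries of the same group had a chi-square of 26.9 or more per degree of freedom, far above sampling noise. The labels do not state that each sample is a separate animal, and p-values then cover only the spread between samples, which may be technical. Tested on simulated data, with the means and library sizes of this comparison and 12985 genes, the fit recovered 4 of 50 genes changed 1.5-fold, 31 of 50 changed 2-fold and 45 of 50 changed 4-fold, and called 11 of 12785 unchanged genes. In the real comparison 41.4% of the genes were called, a far larger share than was changed in the simulation. The adjustment is stricter where few genes change, so these recoveries do not carry over to the real data. Pair ratios used counts + 0.5. The alternatives were RLE size factors, library sizes alone, no filter, DESeq2, limma-voom, the replicate number as a block, sex as a term, a test against a fold change of 1.2, leaving out each library or both female ones and, for ratios, CPM + 1.

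The 41 genes and the lists were chosen with earlier results of these data known. All 41 genes are given with the value of every library, and of each further pathway list the 4 called genes with the largest fold change per direction are named, with every library or as mean ± SD. Bckdk, Ppm1k, Glud1, Qprt, Acmsd, Ido2, Ccbl1, Ccbl2, Aadat and Dld, and the motifs, were chosen after values were seen.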

Additional observations from a re-analysis of the deposited data

Results flagged for a closer look

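In 98 groups of 4 values (41 genes, Capzb and 7 ratios, in CAPZ_KO and in WT), 5 held a library far from the other 3 by Dixon's criterion for 4 samples. Chance gives about 1 in 20, which is close to the share found. CAPZ_KO 4 was the high library in 4 of the 5, but Got1 and the ratio Got1 over Got2 share the same Got1 count. Got1 stood at 248 CPM in CAPZ_KO 4, against 89.3 to 100.1 in the other CAPZ_KO libraries. The ratio of Got1 over Got2 was 1.01 in CAPZ_KO 4 and 0.44 to 0.501 in the others. Gpt2 stood at 1049.9 CPM in CAPZ_KO 4 and 517 to 578 in the others. Aass, the first enzyme of lysine breakdown, stood at 308 CPM in CAPZ_KO 4 and 141 to 159 in the others. For Acadsb, WT 3 held 193 CPM, and WT 1, 2 and 4 held 150.04 to 157 CPM. CAPZ_KO 4 is the female library of its group, so that within CAPZ_KO this library and sex cannot be told apart.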

How the results depend on the processing

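The number of the 41 genes that fell was 25 with library sizes alone and 35 to 37 under the other alternatives, 36 of them with the replicate block. With library sizes alone 3 of the 41 and 5 other breakdown genes rose, 1 synthesis gene fell, and over all genes 700 fell and 7665 rose, against 2469 and 2913 with TMM. That scale moved the median of all genes by 0.625, and with it Got2, Gpt, Glud1 and Pycrl turned to 0.0497, 0.19, 0.43 and 0.00296, while 11 of the 36 that fell lost their call. Against a fold change of 1.2, 1 synthesis gene fell. Leaving out 1 library gave 0 to 1 of the 41 higher, 1 to 2 other breakdown genes higher, 1 to 2 synthesis genes lower and 5 to 8 higher. Gldc ran from −0.18 to 0.25 and Gpt2 from −0.11 to 0.42, the lowest without CAPZ_KO 4, and Gldc was −0.29 without both female libraries and −0.0027 without WT 4. These were uncalled values near 0. Pair ratios kept their direction under CPM + 1 and in each set of 7 libraries, where 3 against 4 cannot give a permutation p below 0.0571. The replicate block, under which 2411 genes fell and 2974 rose, lost or gained no call among the 41. Deviations of same-numbered libraries correlated at 0.245, 0.0251, 0.0847 and 0.301 for numbers 1 to 4, and 3 of 4 WT libraries correlated best with their own number, a hint from the data only. The libraries numbered 4 are also the female ones, so that shared number and shared sex cannot be told apart there. Counts of Pycr1 and Psat1 were few, which limits the precision of their folds.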

Other observations

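Bckdk, the kinase that inactivates the branched-chain ketoacid dehydrogenase, was at 16.8, 17.04, 18.2 and 17.02 CPM in CAPZ_KO livers and 18.2, 12.4, 11.0 and 12.8 CPM in WT livers, a log2 fold change of 0.35 ± 0.162 (SE, adjusted p = 0.109), or 0.51 with an adjusted p of 0.00854 without WT 1. Ppm1k, the phosphatase that activates the complex, fell, at 21.5, 20.5, 14.2 and 15.03 CPM in CAPZ_KO, against 68.0, 44.9, 81.3 and 103 CPM in WT, a log2 fold change of −2.06 ± 0.252 (SE, adjusted p = 0.000212). The groups overlapped for the kinase and were far apart for the phosphatase. Glud1, glutamate dehydrogenase, which frees the ammonia collected by the transaminases, was at 1229, 861, 1260.4 and 914 CPM in the CAPZ_KO libraries, against 1472, 1026, 1152 and 1258 CPM in the WT libraries, a log2 fold change of −0.20 ± 0.184 (SE, adjusted p = 0.404), with overlapping groups. These 3 genes were chosen after their values were seen.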
